A study of Danio rerio with 68 samples.

Results

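The 59 genes described here encode complement proteins, clotting and fibrinolysis factors, and serpins, a family of serine protease inhibitors. They were picked out by symbol alone from the 32677 genes of the deposited tables, with no measured value in the rule: every symbol that starts with serpin, and the symbols of complement components C1r, C1s and C3 to C9, factors B, D, H and I, the MASP proteases, the hbl lectins, coagulation factors, fibrinogen chains, plasminogen and kininogen. In a table of current names 53 of the 59 were matched by gene identifier. The symbols of 6 carry a bracket such as (1 of 2), which numbers it among several copies. Reads of similar copies may have been divided between them in the counting, so the values of those 6 are uncertain. The same limit applies to related members without a bracket, such as c3a, c3b and c3c or serpina1 and serpina1l.

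Complement is a blood protein cascade in which the classical, lectin and alternative pathways cleave C3 and C5 and assemble C6 to C9 into a pore in the target membrane. Coagulation is a second protease cascade that ends in thrombin, which turns fibrinogen into fibrin, and plasmin dissolves the clot. Plasma serpins such as antithrombin and C1 inhibitor hold both cascades in check. Hepatocytes, the main cells of the liver, secrete most of these proteins into blood, many of them more strongly during the acute phase response, while other members are made locally by skin, immune or nerve cells.

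RNA-seq was done on brain, liver and skin of male zebrafish kept in tank water with rotenone, an insecticide from plants that blocks complex I of the mitochondrial respiratory chain, or with its solvent DMSO. Rotenone was given at 3.75 nM for 3 or 8 weeks to fish of 36 months, and controls of 12 and of 36 months were sampled at the same times. No rotenone-treated fish of 12 months were analysed here, nothing is stated of the strain or of the number of tanks, and age cannot be told apart from the cohort in which the fish were reared. The treatment label of the controls reads "none", while the protocol names DMSO.

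Brain and skin were each sampled at 3 and 8 weeks from 3 and 3 controls aged 12 months, 3 and 4 controls aged 36 months, and 5 and 6 rotenone-treated fish aged 36 months. For liver the numbers, in that order, were 2 and 3, 2 and 3, and 4 and 6. The 68 libraries came from 24 fish. The number in a library's label (brain157, liver157, skin157) ties the tissues of a fish together, and a fish is written here with that number, as fish157. Levels are given as RPKM, the read count divided by gene length and library size as the authors deposited it, since only a value per length can be set side by side between genes. A value after ± is a standard deviation over fish beside RPKM and a standard error beside a log2 fold change. Differences were tested on the counts with edgeR's quasi-likelihood test, and a gene is said to be called where its p, adjusted over all genes tested in a tissue (Benjamini-Hochberg), was under 0.05. The p-values measure the spread between these fish, which may share a tank.

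Total counts per library were 24.1 to 54.9 M (mega). The tissue labels were met by their markers: hepatocyte markers took 3.09 to 16% of liver counts, neuron markers 0.689 to 0.902% of brain counts and keratinocyte markers 3.86 to 10.1% of skin counts. The skin of replicate 1 of the 12-month controls at 3 weeks (fish157) held liver transcripts. Of 35 members with at least 100 RPKM in liver, 33 were higher there than in any other skin, at a median of 12.7% of the level in the same fish's liver (8.37 to 29.2%). Together they took 1.288% of its counts against 0.01837 to 0.07439% in the other 23 skins, and 9 of 11 hepatocyte markers were also highest there. The brain of replicate 6 of the 8-week rotenone group (fish208) showed the same on a smaller scale, with 30 of the 35 members above every other brain, a median of 1.72% of the same fish's liver level and a summed share of 0.1832% against 0.02029 to 0.04353% in the other 23 brains. Hepatocyte markers were at 0.252% of counts in that brain, the highest of 24. The liver of replicate 3 of the 36-month controls at 8 weeks (fish188) had the lowest hepatocyte share, 3.09% against 9.02 to 16% in the others, and the highest intestine marker share, 1.74% against at most 0.363%. Where 1 of these libraries decides a result, its value without that library is given beside it, or the text says that it is not given.

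Most members were liver transcripts. The mean RPKM was highest in liver for 42 of the 59 genes, in skin for 12 and in brain for 5. The median over members of the mean level was 136.3 RPKM in liver, 4.928 in skin and 1.856 in brain. Without the 3 libraries just described the medians were 140.9, 1.209 and 1.211 RPKM, and 41 genes were highest in liver and 6 in brain, hbl3 having its liver mean from fish188. Members took 3.66 to 16.7% of all liver counts (median 10.2%), 0.124 to 1.42% of skin counts (median 0.173%) and 0.0562 to 0.229% of brain counts (median 0.0958%), and the highest skin and brain values belonged to the fish157 and fish208 libraries. In the fit of all 68 libraries, edgeR called 50 members higher and 6 lower in liver than in brain. The share of all genes called in that comparison was 82.3%, with 39.0% higher and 43.2% lower, and the median log2 difference was 8.999 over members against -0.10 over all genes. Between liver and skin 44 members were called higher and 13 lower, where 75.1% of all genes were called 31.6% as higher and 43.5% as lower. In bulk tissue, fewer cells of a type and less RNA per cell cannot be told apart.

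**Figure D1:**
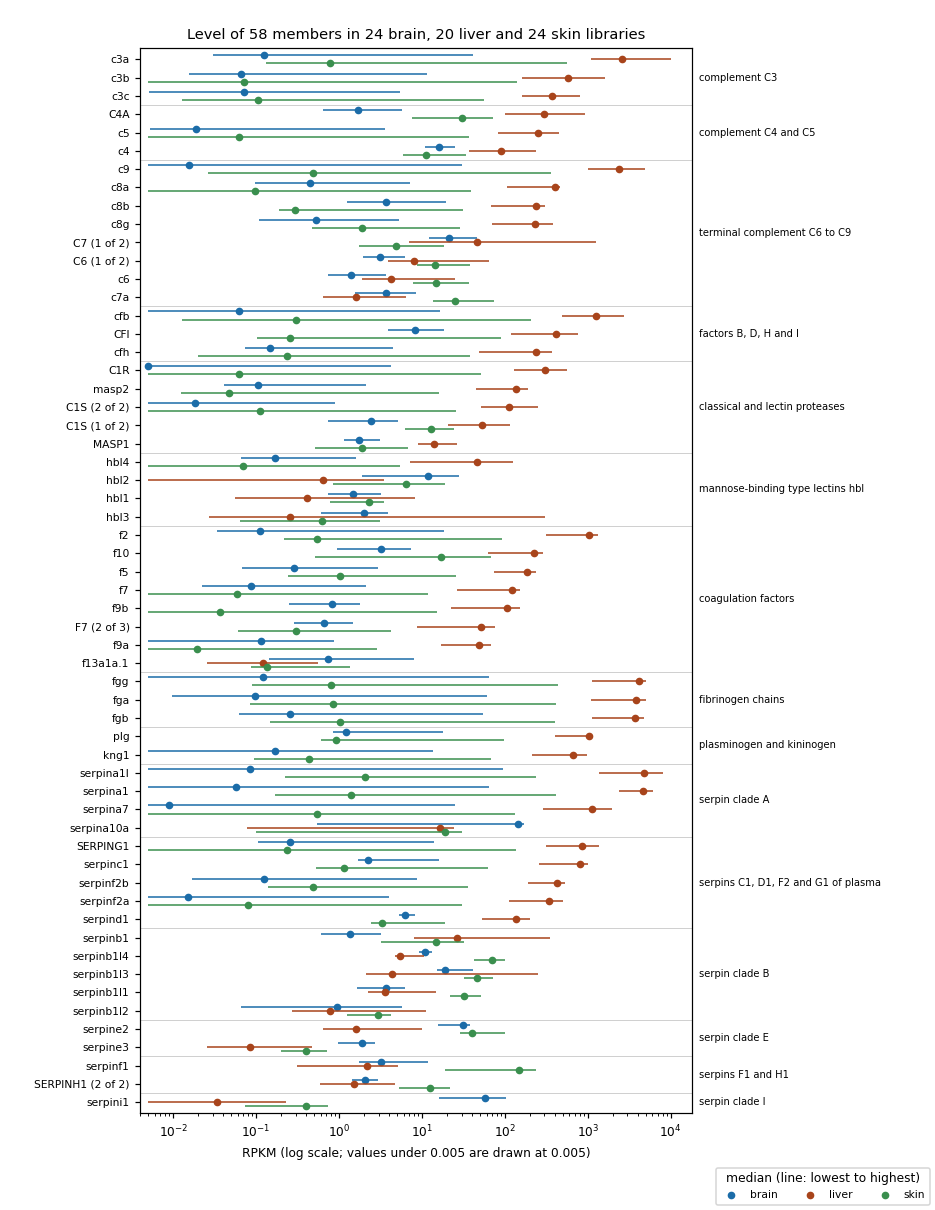
Levels of 58 of the 59 members in brain (24 libraries), liver (20) and skin (24), in RPKM on a log axis, grouped by role. Points are medians and bars the full range over libraries. Most plasma protein genes lie far to the right in liver, the clade B serpins other than serpinb1, serpine2, serpinf1 and c7a are highest in skin, and serpini1 and serpina10a are highest in brain.

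The highest liver levels belonged to protease inhibitors and clot proteins. Alpha-1-antitrypsin, the plasma inhibitor of elastase, has 2 genes here: serpina1 had 4422 ± 1067 RPKM and serpina1l 4456 ± 1631 RPKM (SD, n = 20). The 3 fibrinogen chains had near-equal levels, 3839 ± 871 RPKM for fga, 3580 ± 761 for fgb and 3982 ± 815 for fgg. Within single livers the ratio of fga to fgb was 0.970 to 1.26 and that of fgg to fgb 0.964 to 1.29, so the chains of this hexameric protein kept close to each other in all 20 livers. The 2 antitrypsin genes varied more against each other, with a serpina1 to serpina1l ratio of 0.685 to 1.86. Fibrinogen chains alone took a median of 2.90% of liver counts (0.833 to 3.62%), the C3 genes 1.86% (0.728 to 6.39%) and clade A serpins 1.70% (0.735 to 2.46%).

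C3 is the component on which all 3 complement pathways converge, and zebrafish has several copies. At present c3a is named c3a.1, c3b is c3a.2 and c3c is c3a.3. In liver c3a had 3035 ± 1957 RPKM, c3b 621 ± 331 and c3c 386 ± 152 (SD, n = 20). The c3a values ran from 1107 to 10150 RPKM with a median of 2591, and the highest was replicate 4 of the 8-week rotenone group (fish206). C4 and C5 follow: the gene labelled C4A (c4b at present) had 335 ± 175 RPKM, c5 248 ± 77.8 and c4 112 ± 62.6. Outside liver c4 had 15.9 ± 3.57 RPKM in brain (10.8 to 24.8, n = 24) and 13.4 ± 7.18 in skin, and C4A had 33.2 ± 16.4 RPKM in skin. Factor B, the protease of the alternative pathway convertase, had 1294 ± 471 RPKM in liver. CFI, which inactivates C3b and C4b, had 424 ± 142 RPKM in liver and 8.68 ± 3.93 in brain, and cfh, a regulator of the alternative pathway, had 238 ± 85.6 in liver.

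The proteases that start the classical and lectin pathways were highest in liver, all 5 of them. C1R had 317 ± 92.5 RPKM, masp2 136 ± 30.0 and C1S (2 of 2) 135 ± 61.5 (SD, n = 20). The copy C1S (1 of 2) was spread more widely, at 52.4 ± 23.7 RPKM in liver, 13.8 ± 4.38 in skin and 2.52 ± 1.27 in brain, and MASP1 reached 14.2 ± 4.42 in liver, 2.53 ± 1.63 in skin and 1.83 ± 0.476 in brain. The hbl lectins, collagen-like lectins related to mannose-binding lectin, did not share a tissue. The gene hbl4 had 49.3 ± 24.8 RPKM in liver, hbl2 was highest in brain with 12.99 ± 7.09 (7.34 ± 4.92 in skin), and hbl1 was highest in skin with 2.28 ± 0.6001.

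The terminal components split by tissue. C9, the pore-forming unit, had 2430 ± 835 RPKM in liver, and the 3 chains of C8 had 369 ± 82.2 (c8a), 241 ± 66.9 (c8g) and 233 ± 53.6 (c8b). The genes for the earlier units of the pore did not follow them. In skin c7a had 28.3 ± 14.4 RPKM, c6 17.3 ± 7.94 and C6 (1 of 2) 16.4 ± 7.01, each above its liver mean of 2.17, 6.35 and 12.6 RPKM. In brain C7 (1 of 2) led the terminal genes with 22.3 ± 8.65 RPKM (12.3 to 46.6, n = 24). Its liver mean of 111 ± 273 RPKM came with a median of 45.9, since 1 liver, that of fish206, had 1263 RPKM.

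Of the clotting factors, prothrombin (f2) had 1016 ± 218 RPKM in liver, factor X (f10) 224 ± 47.6 and factor V (f5) 176 ± 41.7. Plasminogen (plg), the precursor of plasmin, had 959 ± 187.8 RPKM and kininogen (kng1), a cofactor of the contact pathway, 657 ± 152. Outside the liver f10 led the factors, with 17.9 ± 16.1 RPKM in skin and 3.15 ± 1.62 in brain. The exception to the liver pattern was f13a1a.1, a gene for the A subunit of factor XIII, which cross-links fibrin: its mean was 1.30 ± 1.66 RPKM in brain against 0.195 in liver and 0.222 in skin. Plasma serpins were liver transcripts, with 879 ± 237 RPKM for SERPING1 (C1 inhibitor), 763 ± 166 for serpinc1 (antithrombin) and 420 ± 85.5 for serpinf2b (alpha-2-antiplasmin). The gene serpind1, heparin cofactor II, had the smallest p of the members between liver and both other tissues, with log2 differences of 5.97 ± 0.17 against brain and 6.27 ± 0.17 against skin.

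The other serpins had homes outside the liver. Of the 5 clade B serpins, mostly intracellular inhibitors of leukocyte proteases, 4 were highest in skin, led by serpinb1l4 with 69.0 ± 20.7 RPKM and serpinb1l3 with 48.9 ± 10.2 (SD, n = 24). These also led the clade in brain, with 10.9 ± 1.15 RPKM for serpinb1l4 and 20.7 ± 5.20 for serpinb1l3. Skin was also the highest tissue for serpinf1 (pigment epithelium-derived factor), with 130 ± 61.0 RPKM, for serpine2 (protease nexin 1), with 44.6 ± 14.98 (29.1 ± 6.64 in brain), and for SERPINH1 (2 of 2), a collagen chaperone, with 12.9 ± 4.48. Brain was highest for serpini1 (neuroserpin, an inhibitor of tissue plasminogen activator in neurons), with 59.05 ± 22.8 RPKM against 0.362 in skin and 0.0655 in liver, for serpina10a, with 115 ± 55.65, and for serpine3, with 1.86 ± 0.385. Between skin and brain 37 members were called higher in skin and 10 lower, where edgeR called 83.0% of all genes, 43.5% as higher and 39.5% as lower. Without the fish157 skin and the fish208 brain 37 were called higher and 15 lower. The smallest p belonged to serpinb1l4 (log2 difference 2.97 ± 0.08), serpini1 (-6.92 ± 0.24), serpinf1 (5.603 ± 0.21) and serpinb1l1 (3.68 ± 0.14).

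After 8 weeks of rotenone, 3 members rose in the liver of 36-month fish: c3b, serpina7 and c4. They are a C3 copy, the serpin that carries thyroid hormone in human plasma, and complement C4. Another 2 members, serpinb1l3 and hbl3, were called lower, and both calls rested on 1 control liver. The 5 calls stand among 58 members tested, and edgeR called 7.36% of all 20190 genes, 2.17% higher and 5.19% lower. The members' log2 fold changes had a median of 0.60 and 50 of 58 were above 0, while over all genes the median was -0.03 and 47.81% were above 0.

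The gene c3b (c3a.2 at present, ENSDARG00000087359) had 277, 235.6 and 160.2 RPKM in the 3 control livers of 36 months. In the 6 rotenone livers it ran from 588.5 to 1597 RPKM with a median of 777. No rotenone value lay within the control range, and the highest, 1597, was replicate 4 (fish206). The log2 fold change was 2.07 ± 0.42 (edgeR adjusted p = 0.00918), and the group means were 224 ± 59.3 RPKM (SD, n = 3) and 887 ± 364 RPKM (n = 6). C4 (c4, ENSDARG00000015065) had 57.57, 75.08 and 45.95 RPKM in these controls and 140.1 to 239 RPKM (median 197) in the rotenone livers. These groups did not overlap either, and the log2 fold change was 1.77 ± 0.38 (edgeR adjusted p = 0.0124). The third, serpina7 (ENSDARG00000087143), had 615.7, 374.7 and 284.5 RPKM in the controls and 764.5 to 1757 RPKM (median 1510) with rotenone. Its lowest rotenone liver stood above the highest control, and the log2 fold change was 1.82 ± 0.39 (edgeR adjusted p = 0.0121).

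All 3 kept their calls when each of the 9 livers was left out in turn, with log2 fold changes of 1.73 to 2.35 for c3b, 1.46 to 2.07 for c4 and 1.46 to 2.32 for serpina7. The 8-week controls of 36 months had the lowest mean of the 4 control groups for all 3 genes. In the other 7 control livers c3b ran from 487.1 to 781.5 RPKM, and 3 of the 6 rotenone livers, at 588.5, 697.9 and 708.5 RPKM, lay within that range. For c4 the other 7 control livers had 36.87 to 93.02 RPKM, below every 8-week rotenone liver. For serpina7 they had 644.6 to 1955 RPKM, which spans all rotenone values. Hepatocyte markers, 11 genes with none at 0 in either group, took 3.09 to 12.7% of counts in the 8-week controls and 12.1 to 16% with rotenone. Without control replicate 3, in which that share is 3.09%, edgeR called these 3 members and no other, and 263 of all 19857 genes higher and 672 lower. The members' median log2 fold change was then 0.38 in place of 0.60, and that of all genes 0.08 in place of -0.03. Without control replicate 1 or 2 the members called numbered 10 and 8. The part of hepatocyte content in the results was not tested.

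**Figure D2:**
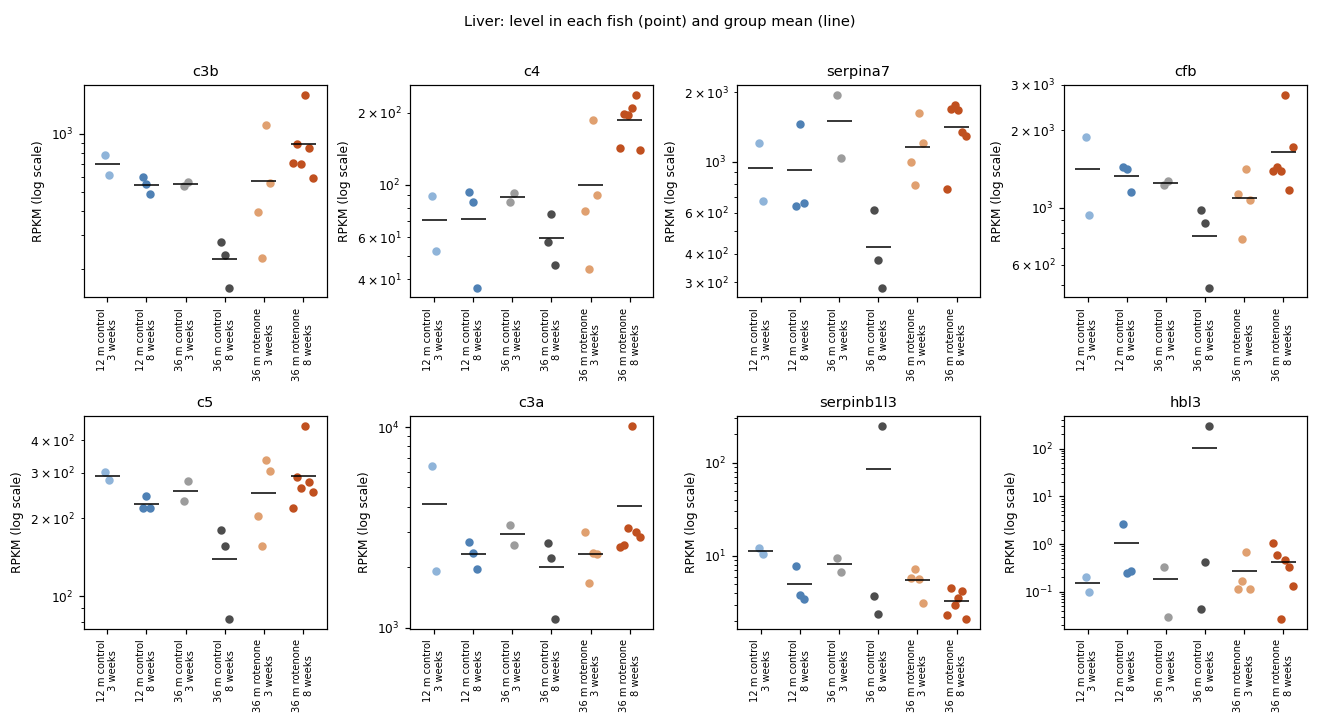
RPKM (log axis) of 8 members in each of the 20 livers, by age, treatment and time; a point is a fish and a line the group mean. For c3b, c4 and serpina7 the 6 livers after 8 weeks of rotenone lie above the 3 control livers of 36 months at 8 weeks, and for serpinb1l3 and hbl3 a single control liver stands far above the rest.

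The 2 lower calls were of another kind. The gene serpinb1l3, which is a skin transcript in these fish, had 3.724, 2.381 and 247.6 RPKM in the controls and 2.121 to 4.568 RPKM with rotenone. The lectin gene hbl3 (mbl2 at present) had 0.04374, 0.4198 and 305.3 RPKM in the controls and 0.02674 to 1.026 RPKM with rotenone. In both, the high value was control replicate 3 (fish188), the liver with the highest intestine marker share, and the other 2 controls lay within the rotenone range. The log2 fold changes were -4.06 ± 0.80 for serpinb1l3 (edgeR adjusted p = 0.00807) and -7.16 ± 1.53 for hbl3 (edgeR adjusted p = 0.0120). Without that liver they were 0.03 for serpinb1l3 and 0.95 for hbl3, neither called.

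Most other complement genes also had log2 fold changes above 0 in liver, short of the threshold. All 3 C3 genes were above 0 (median log2 fold change 1.18), as were all 3 of C4 and C5 (1.15), all 3 of factors B, H and I (0.95), all 8 terminal genes (0.91) and all 5 initiating proteases (0.64). These medians include control replicate 3 (fish188), the liver with the lowest hepatocyte share, and are not given without it. Of the 4 hbl lectins 1 was above 0, hbl4 at 1.45 ± 0.46 (edgeR adjusted p = 0.0671), while hbl1 was at -2.35 ± 0.85 (0.102), hbl2 at -1.16 ± 1.07 and hbl3 as given above. Factor B (cfb) had 979.6, 870.9 and 489.8 RPKM in controls and 1168 to 2755 with rotenone. The log2 fold change was 1.17 ± 0.35 with an edgeR adjusted p of 0.0501, and the groups did not overlap. Next were c5, at 1.14 ± 0.34 (adjusted p = 0.0506 in edgeR), c3c, at 1.18 ± 0.36 (0.0543) and c7a, at 2.12 ± 0.65 (0.0552). In c7a the groups overlapped, with 0.7148 to 1.154 RPKM in controls and 1.006 to 6.412 with rotenone.

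Coagulation genes lay closer to 0. All 8 factors were above 0 with a median log2 fold change of 0.37, all 3 fibrinogen chains with 0.39, all 5 plasma serpins with 0.58 and all 4 clade A serpins with 0.43, and serpina7 was the one called among them. These signs and medians by role also include control replicate 3 (fish188) and are not given without it. Without that liver 46 of 58 members were above 0 in place of 50, and the median over all members was 0.38 in place of 0.60. Over all genes the median was 0.08 in place of -0.03. Fibrinogen fga had 4296, 4185 and 1091 RPKM in controls and 3564 to 4960 with rotenone, so 2 of the 3 controls lay inside the rotenone range. The same held for fgb, with 4018, 3869 and 1116 RPKM in controls and 3145 to 4148 with rotenone. The clade A serpin serpina10a had 19.22, 20.54 and 0.143 RPKM in controls and 9.333 to 19.58 with rotenone. In all 3 genes the low control was fish188. Factor V (f5) was the nearest to a call among the factors, at 0.93 ± 0.29 (edgeR adjusted p = 0.0645). In 13 of the 58 members every rotenone liver was above every control liver, a pattern that 2.59% of all genes show: c3b, c3c, c4, c5, cfb, C1R, C1S (1 of 2), c8b, plg, f5, f10, serpinf2b and serpina7. No member showed the reverse, which 8.66% of all genes did. Without control replicate 3 the count was 16 of 58, and the share of all genes rose to 10.35%.

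**Figure D3:**
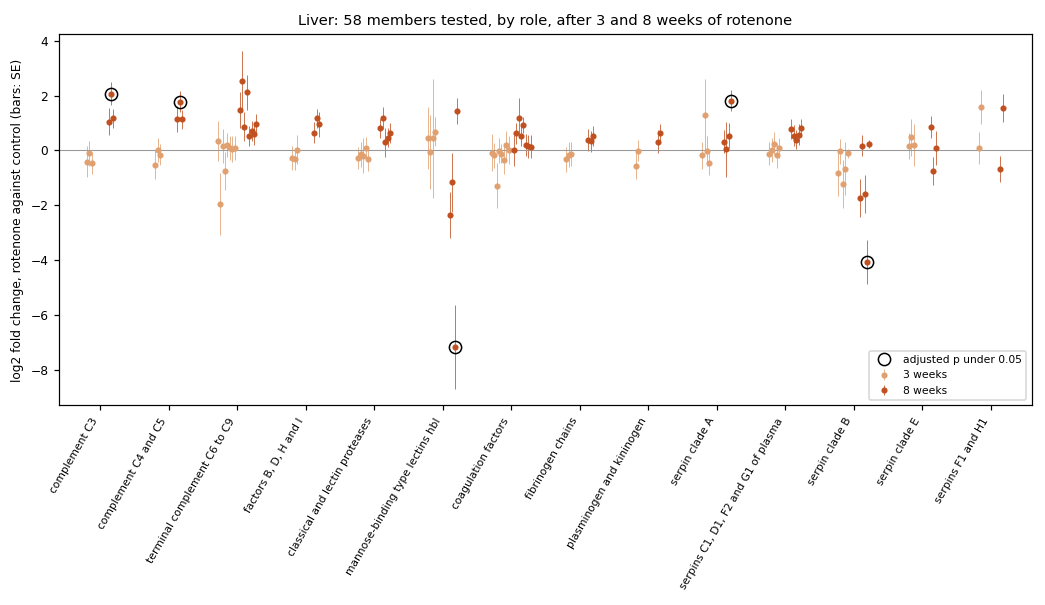
Log2 fold changes (rotenone minus control, 36 months) in liver at 3 and at 8 weeks for the 58 members tested, grouped by role, with standard errors; circled points are called by edgeR. At 8 weeks 50 of 58 lie above 0 and 5 are circled, at 3 weeks 23 of 58 lie above 0 and none is circled.

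Related genes that are not members were counted from fixed lists in the same contrast, liver after 8 weeks of rotenone. Of all 20190 genes edgeR called 439 higher and 1047 lower there. Control replicate 3 (fish188), with the lowest hepatocyte share, is included in these values, and they are not given without it. Its share was 3.09%, where the median of the 3 controls was 11.9%. The part of hepatocyte content in the list values was not tested. Of 18 other plasma and acute phase protein genes 1 was called, ITIH4, an inter-alpha-trypsin inhibitor chain, at 1.05 ± 0.28, and 18 of 18 were above 0. Of 22 other coagulation genes 2 were called, THBD (thrombomodulin) at 1.98 ± 0.36 and a2ml at 1.40 ± 0.30, and of 19 other complement genes 2 were, cfhl4 at 1.04 ± 0.30 and CD59 (2 of 2), a copy of the inhibitor of the membrane pore, at -3.49 ± 0.91. Of 20 acute phase signalling genes 2 were called, jak2b at 0.52 ± 0.13 and OSMR (2 of 3) at 0.86 ± 0.24, and of 15 hepatocyte transcription factors 1 was, foxa3 at 1.45 ± 0.35.

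After 3 weeks of rotenone no member was called in liver, where edgeR called 0.0% of genes; 1 of 58 had an unadjusted p under 0.05, and DESeq2 and voom called none. The members' median log2 fold change was -0.09, with 23 of 58 above 0. The gene with that p was serpinf1, which had 0.712 and 0.7192 RPKM in the 2 controls and 1.576 to 3.561 in the 4 rotenone livers, a log2 fold change of 1.59 ± 0.61 (edgeR adjusted p = 0.934). Its groups did not overlap, and those of hbl4 did not either (6.94% of all genes had every treated liver above both controls). For kng1 and C7 (1 of 2) every treated liver was below both controls, which 2.74% of all genes showed. The next were C7 (1 of 2), at -1.96 ± 1.13, f13a1a.1, at -1.28 ± 0.81, and serpinb1l2, at -1.24 ± 0.88. These 3 values hung on the 2 controls. Without control replicate 1 that of C7 (1 of 2) was -0.90, and without control replicate 2 that of f13a1a.1 was 0.49 and that of serpinb1l2 -0.24. For c3b the 4 rotenone livers had 227.6 to 1111 RPKM around the 534.5 and 561.5 of the controls, and for c4 they had 44.14 to 187.6 around 84.73 and 91.98.

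The difference between the 2 rotenone effects in liver was itself tested, and edgeR called no member at a background of 0.0693%. An unadjusted p under 0.05 was reached by 14 of 58 members, and 2 members were called by DESeq2 and 0 by voom. The smallest p was that of serpina7, at 2.29 ± 0.57 (edgeR adjusted p = 0.126), c3b, at 2.17 ± 0.59 (0.174), c4, at 1.76 ± 0.55, and c7a, at 2.86 ± 0.92. The effects at the 2 times were thus not shown to differ for any member. Of the fixed lists THBD was called in this contrast at 2.93 ± 0.51 and rxraa, a retinoid X receptor gene among the hepatocyte factors, at -2.67 ± 0.46.

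Age gave no called member in liver. Between 36- and 12-month controls edgeR called 0 of 58 members, with 0.926% of all genes called, 3 members at an unadjusted p under 0.05, and 0 calls by DESeq2 and by voom. Among the smallest p were those of serpinf1 (-1.18 ± 0.43), serpinb1l3 (1.62 ± 0.75) and c3b (-0.72 ± 0.35). The value of serpinb1l3 was -0.47 without the liver of fish188. In 3 members, C1R, c9 and c8b, each of the 5 livers of 36 months was below each of the 5 of 12 months, a pattern of 1.62% of all genes. C9 had 1019 to 2082 RPKM at 36 months and 2184 to 3271 at 12 months. The 39 members below 0 had no call among them, and the lists around them held 3 called genes, cebpa (-2.16 ± 0.49), OSMR (2 of 3) (-1.22 ± 0.21) and rxraa (-1.28 ± 0.26).

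Between 8 and 3 weeks in control livers edgeR called 0 of 58 members while 7.35% of all genes were called. Of the members 3 had an unadjusted p under 0.05, DESeq2 called 1 and voom 0. They were hbl3, at 5.92 ± 1.76 (edgeR adjusted p = 0.0501), serpinf1, at 1.39 ± 0.44 (0.0665), and f13a1a.1, at -1.41 ± 0.62, followed by serpina7 at -0.61 ± 0.32. The value of hbl3 came from the 305.3 RPKM of fish188. Without that liver 5 of 58 members were called, while 1173 of all 19857 genes were called higher and 1171 lower. With it these were 732 and 751 genes. The count of calls thus moved with a single library, for members and for all genes. List genes called were hamp2 (hepcidin, an acute phase peptide), at -2.82, C5AR1, a receptor for the C5a fragment, at -2.98, THBD at -1.07, foxa3 at -1.21, nr5a2 at -0.98 and hnf1ba at 0.91. Before the filter on low values the lists matched 22 other complement, 23 other coagulation and 19 plasma protein genes. They also matched 23 acute phase signalling genes and 15 hepatocyte transcription factors. Whether list genes were called more often than the 7.35% of all genes was not tested.

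In brain, age was the contrast in which members were called. There 3 genes rose in 36-month controls: C1S (1 of 2), serpinb1l2 and C7 (1 of 2), that is, a classical pathway protease, a clade B serpin and a unit of the membrane pore. These were 3 of 56 members tested, and edgeR called 1.98% of all 23032 genes, 1.4% as higher and 0.573% as lower. In 7 members every one of the 7 brains of 36 months was above every one of the 6 brains of 12 months, which 1.44% of all genes showed, and in none was the reverse true (0.799%). These were the 2 complement genes just named and C4A, c6, C6 (1 of 2), cfb and c3a. In brain cfb had a median of 5.5 counts, with 0 in 5 of 24 libraries, and c3a a median of 0.12 RPKM. The 35 members with at least 100 RPKM in liver together took 0.02558 to 0.04353% of counts in the 36-month control brains. In the 12-month controls they took 0.02029 to 0.02541%. The part of such liver transcripts in the cfb and c3a values was not tested. The members' median log2 difference was 0.36 against 0.01 over all genes.

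C1S (1 of 2) (ENSDARG00000089722) had 1.353, 1.088 and 2.028 RPKM at 3 weeks and 0.7373, 1.202 and 0.8863 at 8 weeks in 12-month controls. In 36-month controls it had 3.839, 4.484 and 2.746 RPKM at 3 weeks and 4.309, 4.16, 2.596 and 2.766 at 8 weeks. The lowest old brain was above the highest young one. The log2 difference was 1.59 ± 0.31 (edgeR adjusted p = 0.0100), and it stayed called whichever of the 13 brains was left out.

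C7 (1 of 2) (ENSDARG00000057121) had 12.26 to 15.73 RPKM in the 6 young brains (median 13.9) and 15.9 to 46.65 in the 7 old ones (median 21.4). The groups met without overlapping, and the highest value, 46.65, was replicate 3 of the 36-month controls at 3 weeks (fish162). The log2 difference was 0.80 ± 0.21 (edgeR adjusted p = 0.0456). This call was lost in 10 of the 13 fits that left out a library, namely each of the 6 young brains, replicates 1 to 3 of the old controls at 8 weeks and replicate 3 at 3 weeks. The adjusted p reached 0.181 and the log2 difference was 0.52 without that last library. Its neighbours in rank were near the threshold: C4A at 1.26 ± 0.34 (edgeR adjusted p = 0.0554), c6 at 1.12 ± 0.31 (0.0659), C6 (1 of 2) at 0.57 ± 0.16 (0.0674) and c4 at 0.47 ± 0.14 (0.101).

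The serpin serpinb1l2 (ENSDARG00000070396), a relative of the leukocyte elastase inhibitor, split the old brains. In 12-month controls it had 0.06653 to 0.2326 RPKM. In 36-month controls it had 3.287, 0.2321 and 5.781 RPKM at 3 weeks and 0.2506, 0.3698, 2.104 and 4.817 at 8 weeks. Of the 7 old brains, 4 were thus at 2.104 RPKM or more and 3 at 0.3698 or less, near the young fish. The log2 difference was 4.15 ± 0.90 (edgeR adjusted p = 0.0181). The call was lost without any 1 of 5 young brains (both of replicates 1 and 2 at 3 weeks and all 3 at 8 weeks), with adjusted p up to 0.0727 and log2 differences of 3.62 to 4.43 over the 13 fits.

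**Figure D4:**
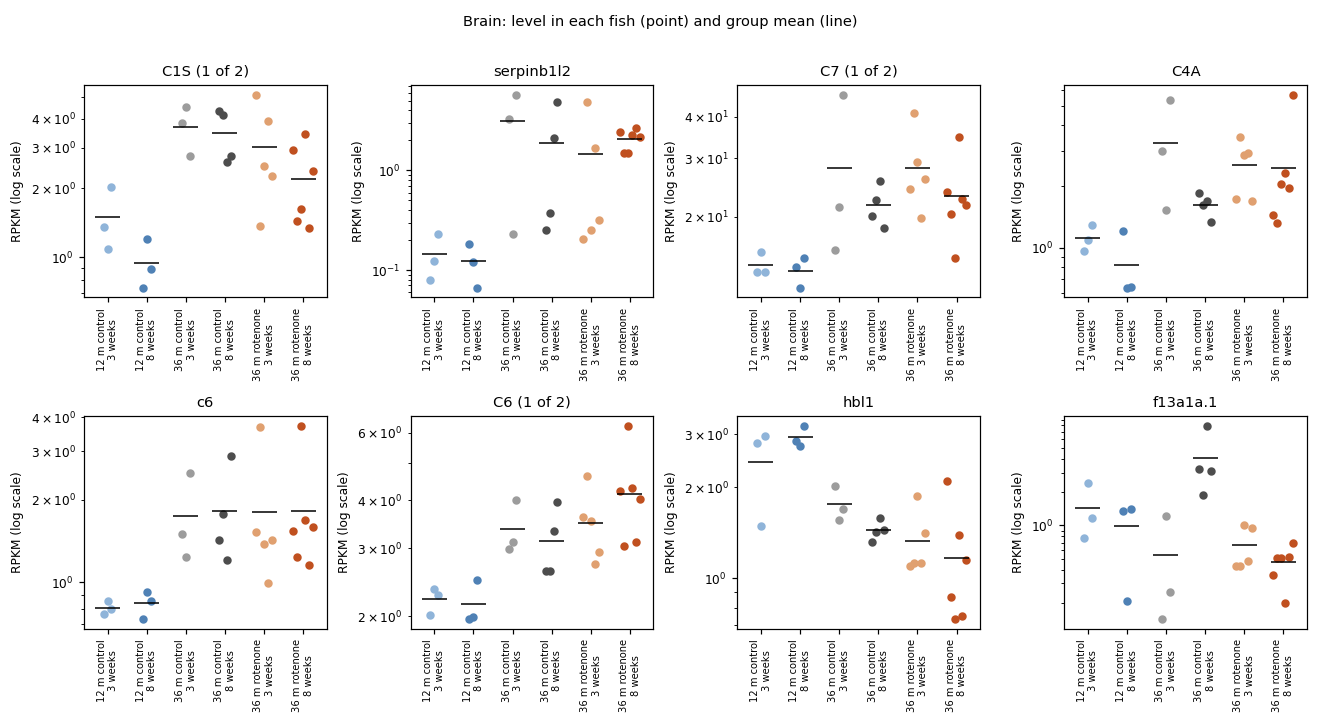
RPKM (log axis) of 8 members in each of the 24 brains, by age, treatment and time; a point is a fish and a line the group mean. C1S (1 of 2), C7 (1 of 2), C4A, c6 and C6 (1 of 2) are higher in all 36-month controls than in any 12-month control, serpinb1l2 has high and low brains among the old fish, and f13a1a.1 is highest in the 36-month controls at 8 weeks.

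Not all complement genes were higher in old brains. None of the 4 hbl lectins had a log2 difference above 0, and hbl1 had 1.492 to 3.198 RPKM in young and 1.325 to 2.029 in old controls (log2 difference -0.74 ± 0.23, edgeR adjusted p = 0.116). The 20 macrophage marker genes, of which c1qc was at 0 in every brain group, moved with age: they took 0.00504 to 0.00706% of counts in 12-month and 0.00873 to 0.0129% in 36-month controls, with no overlap. Their part in the complement results was not tested. With age in brain edgeR called 323 of all 23032 genes higher and 132 lower. Of 17 other complement genes tested in brain 1 was called, c1qa, a chain of the C1q recognition molecule and itself one of those macrophage markers, at 0.99 ± 0.22. Of 20 acute phase signalling genes 2 were called, nfkbiaa at 1.09 ± 0.21 and tnfb at 1.60 ± 0.32, and none was among the 17 plasma proteins, the 21 other coagulation genes and the 11 hepatocyte factors tested.

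Rotenone did not bring a member past the threshold in brain. At 3 weeks edgeR called 0 of 56 (0.0% of all genes), 2 members had an unadjusted p under 0.05 and DESeq2 and voom called none. Those 2 were serpinf1, with 1.759 to 2.44 RPKM in controls and 2.195 to 4.056 with rotenone (log2 fold change 0.82 ± 0.38), and neuroserpin, serpini1. The latter had 59.66, 67.62 and 68.28 RPKM in controls and 30.8, 54.14, 16.12, 23.19 and 56.55 with rotenone. Every treated brain was below every control, which f7 and 2.3% of all genes also showed, and the log2 fold change was -0.79 ± 0.37 (edgeR adjusted p = 0.389). Next came serpinb1l3 at 0.52 ± 0.26 and CFI at 0.53 ± 0.36. Without the 2 brains of this group that earlier results had set apart, replicates 3 and 4, the value of serpini1 was -0.46 and that of serpinb1l3 -0.03.

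At 8 weeks edgeR again called 0 of 56 members in brain, at a background of 0.0304%, while 25 had an unadjusted p under 0.05 and DESeq2 and voom called 1 each. The 25 came largely from the brain of fish208. Without it 3 of 52 members had such a p, 19 were above 0 in place of 40 of 56, and the members' median log2 fold change was -0.11 in place of 0.51. The gene c3b shows this: it had 0.01545 to 0.09363 RPKM in 5 rotenone brains, 11.61 in the brain of fish208 and 0.02701 to 0.1011 in controls. Its log2 fold change was 5.27 ± 1.66 with that library and 0.20 without it. For serpinf2b the values were 3.97 ± 1.33 and 0.63.

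The factor XIII A subunit gene, f13a1a.1, had the smallest p of the members at 8 weeks and kept its value without fish208, at -3.32. It had 3.258, 1.864, 7.939 and 3.09 RPKM in the 36-month controls at 8 weeks and 0.2006 to 0.6976 (median 0.511) in the 6 rotenone brains. All rotenone brains were below all controls, a pattern of 0.673% of all genes. The log2 fold change was -3.16 ± 0.57 (edgeR adjusted p = 0.0530), and it ran from -3.39 to -2.62 when each library was left out. The controls at 8 weeks were high against the other control brains, which had 0.1436 to 2.43 RPKM. In the other direction f9a, a factor IX gene, was above all controls in all 6 rotenone brains (2.04% of genes), at 0.1483 to 0.8697 RPKM against 0 to 0.1017, levels of few reads. The highest of these values, 0.8697, was that of fish208. The log2 fold change of f9a was 2.41 ± 0.74. It was tested in 8 of the 10 fits that left out a library, at 2.04 to 2.98, and called in none. Its value without the brain of fish208 is not given.

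The 8- and 3-week rotenone effects in brain did not differ at the threshold for any member (background 0.0%, edgeR). An unadjusted p under 0.05 was reached by 16 of 56, DESeq2 called 1 and voom 0. The value of f13a1a.1 was -3.51 ± 0.90, and those of fga, c3b and f7 were 7.31 ± 2.63, 6.66 ± 2.19 and 3.503 ± 1.30. Without the brain of fish208 c3b was at 1.59 and fga at 0.74. The gene f7 had a median of 0.087 RPKM over the 24 brains and a highest value of 2.138. It was tested in 17 of the 18 fits that left out a library, at 3.30 to 3.76. Its value without the brain of fish208 is not given, so this range does not show that f7 holds without that library. Between 8 and 3 weeks in control brains edgeR called 0 of 56 members (background 0.122%), with 3 at an unadjusted p under 0.05 and none called by DESeq2 or voom: f13a1a.1 at 1.18 ± 0.50, CFI at -0.60 ± 0.28 and C4A at -0.69 ± 0.33. The next was serpinb1 at 0.51 ± 0.30.

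In skin, 2 members were called with age, serpinb1l4 as higher and f2 as lower in 36-month controls, and without the skin of fish157 edgeR called neither. The inhibitor gene serpinb1l4 (serpinb14 at present, ENSDARG00000091801) had 42.35, 51.18 and 42.25 RPKM at 3 weeks and 48.37, 51.97 and 48.38 at 8 weeks in 12-month controls. In 36-month controls it had 96.29, 98.91 and 88.64 RPKM at 3 weeks and 52.04, 46.76, 52.87 and 72.04 at 8 weeks. Among control skins, the old ones at 3 weeks stood apart from all others. Of the 4 old ones at 8 weeks, 1 lay within the young range and 2 within 1 RPKM of its upper end. The highest of all 24 skins, at 100.1 RPKM, was not a control. The log2 difference was 0.79 ± 0.17 (edgeR adjusted p = 0.0224), among 54 members tested and 2.41% of all genes called, 1.15% as higher and 1.26% as lower. The times were also looked at singly after these values were seen. At 8 weeks alone the log2 difference was 0.32 ± 0.23 (edgeR adjusted p = 0.636), and at 3 weeks alone 1.27 ± 0.24 (edgeR adjusted p = 0.0388), where 0.362% of all genes were called, 0.22% as higher and 0.141% as lower. Left out in turn, each of 3 young skins (the 1 of fish157 and replicates 2 and 3 at 8 weeks) took the call away, with log2 differences of 0.70 to 0.84 over the 13 fits.

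Prothrombin, f2 (ENSDARG00000036041), was called lower in old skin, at -3.54 ± 0.74 (edgeR adjusted p = 0.0226). It had 92.8, 1.311 and 2.53 RPKM at 3 weeks and 1.343 to 1.961 at 8 weeks in young skin, against 0.216 to 1.451 in old skin. The value of 92.8 belonged to fish157. Without it the log2 difference was -1.43 and was not called. The members next in rank also moved with that skin: c5 was at -3.65 ± 0.997 with and -0.63 without it, and c8g at -1.65 ± 0.45 and -0.52, not called in either fit. Over all members the median log2 difference was -0.90 with that skin and 0.33 without it, and members above 0 went from 16 to 41 of 54. In 1 member every old skin was below every young one, a pattern of 1.97% of all genes: serpine2 (protease nexin 1), which had 46.44 to 67.16 RPKM at 12 months and 29.09 to 44.4 at 36 months. List genes called with age in skin were anxa2a, at 0.71 ± 0.16, and s100a10b, at 0.52 ± 0.12, whose products bind plasminogen on cell surfaces, and HPX (1 of 2), a hemopexin copy, at -3.34 ± 0.88. Without fish157 edgeR called 0.25% of all genes, and these 3 were at 0.72, 0.49 and -0.01 (edgeR adjusted p of 0.0664, 0.0852 and 0.994), none of them called.

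The 20 members called lower at 8 than at 3 weeks in control skin, of 54 tested, rested on the same library. All genes were called in 3.26% of cases, lower in 2.15% and higher in 1.11%. The leading members were CFI, at -4.09 ± 0.86, f9b, at -5.20 ± 1.11, c3a, at -5.52 ± 1.18, c3b, at -5.96 ± 1.31, c5, at -4.43 ± 1.01, kng1, at -3.67 ± 0.85, c3c, at -5.00 ± 1.16, and cfb, at -5.02 ± 1.17. Then came serpina7, at -5.30 ± 1.24, SERPING1, at -4.50 ± 1.07, fgb, at -4.39 ± 1.07, and plg, at -2.78 ± 0.70. CFI had 90.46, 1.094 and 0.3619 RPKM in the young controls at 3 weeks and 0.1182 to 0.3272 at 8 weeks, and the value of 90.46 was that of fish157. Without it edgeR called none of these members, 7 had an unadjusted p under 0.05, and CFI was at -1.27. With fish157 kept, none was called either without replicate 2 or without replicate 3 of the young controls at 8 weeks, and 1 without replicate 1.

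Rotenone left no called member in skin. At 3 weeks edgeR called 0 of 54 (0.0% of all genes), 1 had an unadjusted p under 0.05 and DESeq2 and voom called none. That gene was hbl3, with 0.2971 to 3.102 RPKM in controls and 0.06943 to 0.6948 with rotenone (log2 fold change -1.82 ± 0.77, and -0.51 without control replicate 3). In kng1, CFI and F7 (2 of 3) every treated skin was below every control, a pattern of 1.9% of all genes. By p, hbl3 was followed by c3a at -2.36 ± 1.27, f9b at -1.91 ± 1.29 and serpine2 at 0.47 ± 0.29, a value that was -0.0077 without replicate 2 (fish169). At 8 weeks edgeR called 0 of 54 members while 5.29% of all genes were called. Of the members 4 had an unadjusted p under 0.05, DESeq2 called 0 and voom 4. Among them were hbl2 (-1.38 ± 0.63), serpinb1l4 (0.41 ± 0.19) and C6 (1 of 2) (0.68 ± 0.32). The effects at 8 and at 3 weeks did not differ past the threshold for any member (background 0.0%, 2 at an unadjusted p under 0.05, none by DESeq2 or voom): serpinb1l4 was at 0.68 ± 0.29, C6 (1 of 2) at 0.9997 ± 0.48 and c3a at 2.69 ± 1.75.

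The skin serpin serpinf1 varied between groups beside the collagen markers. It had 69.28 to 232.6 RPKM in the 6 young skins, 44.97 to 181 in the 7 old control skins, 19.01 to 95.51 after 3 weeks and up to 234.1 (median 180.7) after 8 weeks of rotenone. The 9 fibroblast and collagen marker genes took 0.189 to 3.46%, 0.215 to 0.817%, 0.126 to 0.456% and 0.747 to 4.30% of counts in the same groups. The part of connective tissue in the serpinf1 level was not tested, and serpinf1 was chosen here after its values were seen.

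Whether the effects differ between tissues was tested in the fit of all 68 libraries. For 8 weeks of rotenone, 5 of 59 members differed between liver and brain, where edgeR called 5.54% of all genes, 1.63% as higher and 3.91% as lower. The effect was higher in liver for f13a1a.1 (difference 4.38 ± 1.01, edgeR adjusted p = 0.00414), C1S (1 of 2) (1.95 ± 0.51, 0.0125) and c4 (1.83 ± 0.49, 0.0143). In liver f13a1a.1 was near the floor, at a mean of 0.195 RPKM and 3 to 78 counts. In brain its log2 fold change was -3.39 to -2.62 when each library was left out, against the high 8-week controls described above. The effect was lower in liver for serpinb1l3 (-4.03 ± 0.69) and hbl3 (-7.09 ± 1.35), the 2 genes that rest on the liver of fish188. Between liver and skin 5 members differed (5.41% of all genes called, 1.75% as higher and 3.66% as lower), among them c4 (2.03 ± 0.49, edgeR adjusted p = 0.00648), C1S (1 of 2) (1.72 ± 0.50, 0.0291), serpinb1l3 (-4.06 ± 0.68) and hbl3 (-6.34 ± 1.38). With the fish as a block, limma called 3 members in each of these comparisons, and serpinb1l3 and hbl3 were not among them in either.

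For age, C1S (1 of 2) differed between liver and brain (-2.26 ± 0.45, edgeR adjusted p = 0.00305, 1.67% of all genes called, 0.577% as higher and 1.09% as lower), its rise being in brain. The next were serpinb1l2, at -3.33 ± 0.96 (edgeR adjusted p = 0.0569), serpinb1l1, at -1.23 ± 0.36, and cfb, at -6.10 ± 2.06. Between liver and skin serpinb1l4 differed by age (-1.09 ± 0.20, edgeR adjusted p = 0.00107, 1.77% of all genes called, 0.773% as higher and 0.995% as lower), its rise being in skin. Within skin its log2 difference was 1.27 at 3 weeks and 0.32 at 8 weeks, and its call was lost without the skin of fish157. Not called were C1S (1 of 2), at -1.30 ± 0.44, and serpinb1l1, at -1.005 ± 0.36.

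Some members were low or high in more than 1 tissue of a fish at once. These genes and the fish were picked after their values were seen, so no test is given. The clade A serpin serpina10a, whose human counterpart inhibits factor X with protein Z, was the clearest. Its brain level was 0.96 RPKM in fish162, 0.74 in fish188 and 0.54 in fish169, against 71.8 to 170.7 RPKM in the other 21 fish. The same fish were lowest in the other tissues, with 0.0994 to 0.134 RPKM in skin against 7.57 to 30.7, and 0.0775 and 0.143 in the 2 livers measured against 9.33 to 24.6. They were 2 controls and 1 rotenone fish of 36 months.

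The lectin hbl2 was low in 4 rotenone fish (fish171, fish205, fish207 and fish208), with 1.89 to 3.42 RPKM in brain, 0.838 to 1.40 in skin and 0 to 0.147 in liver. In the other 20 fish it had 8.25 to 27.8, 3.02 to 18.9 and 0.208 to 3.45 RPKM. The other 7 rotenone fish were among these, at 8.25 to 18.5 RPKM in brain. Factor X, f10, was low in the skin of 6 fish of 36 months (fish168, fish170, fish187, fish203, fish205 and fish206), 5 of them treated with rotenone, at 0.509 to 1.54 RPKM against 12.6 to 67.3 in the other 18. In their brains it was at 0.936 to 2.15 RPKM against 1.71 to 7.37, while their livers, at 195.6 to 287 RPKM, were not low. For serpinb1l2, 12 fish of 36 months had 1.49 RPKM or more in brain and the other 12 fish had 0.370 or less. The skin of the former had 2.89 to 4.20 RPKM and that of the latter 1.25 to 3.34. Their livers overlapped, at 0.330 to 11.33 and 0.271 to 1.835 RPKM.

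**Figure D5:**
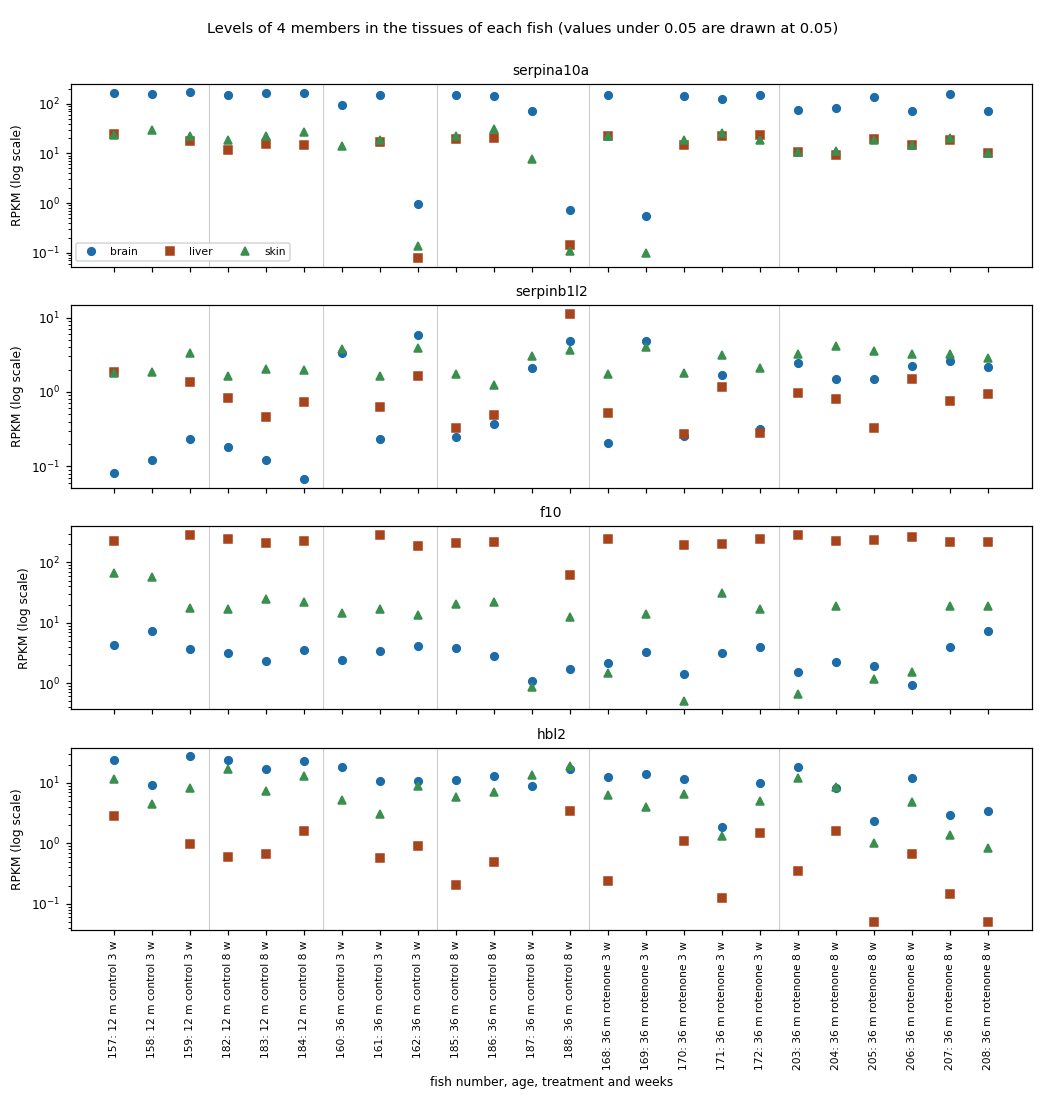
RPKM (log axis) of serpina10a, serpinb1l2, f10 and hbl2 in the brain, liver and skin of each of the 24 fish, ordered by age, treatment and time. The fish162, fish169 and fish188 points are low for serpina10a in every tissue measured, and those of fish171, fish205, fish207 and fish208 are low for hbl2; the f10 level differs between fish in skin, and in liver fish188 is the low point.

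The members that were absent from some libraries of a tissue and abundant in another followed the 2 libraries with liver transcripts. In skin c3b, SERPING1, serpina7 and c5 each had 0 counts in 1 of 24 libraries and up to 20374, 10102, 5666 and 5330 counts in the skin of fish157, and c8a had 0 counts in 2 and up to 2343. In brain serpina1l and fgg had 0 counts in 1 of 24 libraries and serpina1 in 4, with up to 4881, 4120 and 3248 counts in the brain of fish208. The typical level was close to 0 in the tissue: the median count was 10.5 for c3b in skin and 2.5 for serpina1 in brain.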

How the data were processed

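Per the labels' protocols, total RNA was extracted with a phenol-based reagent and libraries were made with a TruSeq RNA kit. The authors deposited counts, whole and unscaled, for each gene in each library, and RPKM of the same genes; both are used here. The submitters' processing notes name CASAVA 1.8.2. Aligner, counting tool, strand setting and genome build: not given in the sources used here, so reads of overlapping, antisense and similar genes may have been assigned to a member. For 30932 genes the ratio of RPKM to counts implied a single gene length over all libraries. No library was taken for a copy of another, since the 109 replicate pairs differed beyond sampling noise (lowest chi-square per gene 15.79).

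The 6 groups of a tissue entered 1 fit in edgeR 4.0.16 (R 4.3.3). The filter on low values was filterByExpr with minimum count 10 and minimum total 15, and 23032 genes with 56 members passed it in brain, 20190 with 58 in liver and 22682 with 54 in skin. Members that failed were C1R, C1S (2 of 2) and serpinf2a in brain, serpini1 in liver, and C1R, f7, f9a, hbl4 and masp2 in skin. Scaling was by TMM. The robust quasi-likelihood F test was two-sided, and p was adjusted by Benjamini-Hochberg over all genes of the fit, with calls at 0.05. Standard errors were taken as |log2 fold change| over the root of F. Contrasts between tissues came from 1 fit of the 68 libraries (25628 genes, 59 members). Age is the mean of the 3- and 8-week differences between control groups. Only the 8-week rotenone contrast within each tissue was run on simulated counts. In these no library was made to stand apart, so they do not bear on results that rest on a single library.

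The rule for members reads symbols only, but this gene family, like the lists, was chosen with earlier results of these data known. Named with values are, per contrast, the members called (at most 12 in each direction), or, with under 4 calls, the 4 of smallest p, then the members with the highest levels of each role, and 8 members with 0 counts in a library of a tissue and at least 100 in another. Gene lists and cell markers were matched by symbol. Values of 1 member that the rule names are not reported here, though counts over members include it.

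As alternatives, every contrast was recomputed with RLE size factors, without the filter, in DESeq2 1.42.0, with the replicate number as a block and without 5 libraries that earlier results had set apart. Contrasts within a tissue were also refitted with limma 3.58.1 on quality-weighted voom values, on their own groups only and with single libraries left out, and contrasts between tissues with the fish as a block. Fits without the library that held liver transcripts in skin or brain, and levels without these and the liver of fish188, were chosen after seeing the data. The labels give a fish 1 number in all tissues, and its libraries correlated above 0.1 in 23 of 24 pairs of brain and skin, 14 of 20 of brain and liver and 17 of 20 of liver and skin.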

Additional observations from a re-analysis of the deposited data

Results flagged for a closer look

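The levels of single genes were examined in groups of 4 to 6 libraries, 55 combinations of a gene and a group in all, and in 13 a library lay far from the others of its group. The genes were picked from these same data: those of smallest p in a contrast, and those absent from 1 library of a tissue and abundant in another. That choice favours such distances, and the cases share libraries. The number found can therefore not be set against the 1 in 20 that chance gives in independent cases. Of the 13, 5 were the brain of replicate 6 after 8 weeks of rotenone (fish208), with 11.61 RPKM of c3b, 0.8697 of f9a, 64.72 of fgg, 63.98 of serpina1 and 95.74 of serpina1l. The same plasma protein genes set apart replicate 4 of the 3-week rotenone brains, with 1.294 RPKM of fgg, 1.897 of serpina1 and 2.729 of serpina1l, and replicate 2 of the 36-month control brains at 8 weeks, with 0.7318 RPKM of serpina1 and 1.117 of serpina1l. In skin, replicate 2 after 3 weeks of rotenone (fish169) stood apart with 2.251 RPKM of c3a and 100.7 of serpine2. In liver it was replicate 4 after 8 weeks of rotenone (fish206), with 1597 RPKM of c3b.

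Effects that differed between tissues by the test of the difference were those of 8 weeks of rotenone between liver and brain for f13a1a.1 (4.38 on the log2 scale), C1S (1 of 2) (1.95), c4 (1.83), serpinb1l3 (-4.03) and hbl3 (-7.09). Between liver and skin they included those for c4 (2.03), C1S (1 of 2) (1.72), serpinb1l3 (-4.06) and hbl3 (-6.34). The effect of age differed for C1S (1 of 2) between liver and brain (-2.26) and for serpinb1l4 between liver and skin (-1.09). The high control liver values of serpinb1l3 and hbl3 are those of fish188. Within liver their log2 fold changes without it were 0.034 and 0.95. The differences between tissues were not refitted without that liver alone, only without all 5 set-apart libraries.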

How the results depend on the processing

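The calls of c3b, c4 and serpina7 in liver after 8 weeks of rotenone and of C1S (1 of 2) in old brain held in every fit that left out a library. The values of serpinb1l3 and hbl3 in liver went to 0.034 and 0.95 without control replicate 3 and without the libraries set apart by earlier results, which include that liver, and hbl3 was at 0.51 with voom. With a library left out they ran from -4.69 to 0.034 for serpinb1l3 and from -7.85 to 0.95 for hbl3. Without the set-apart libraries the differences between tissues were 0.079 for serpinb1l3 and 1.098 for hbl3 against brain and 0.066 and 1.87 against skin. DESeq2 gave neither gene an adjusted p in liver.

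The number of members called moved by over 1.5 times in the following cases, and apart from the left-out libraries the cause was not tested. For liver after 8 weeks of rotenone it was 5, against 8 with RLE, 13 with DESeq2, 12 with voom, 3 without the set-apart libraries and 3 with the 2 groups alone. It ran from 3 to 10 with a library left out, and was 10, 8 and 3 without control replicates 1, 2 and 3. For age in brain 3 members were called, against 8 with DESeq2 and 11 with voom. There were 6 without the set-apart libraries and 9 with the control groups alone. Over all genes 323 were called higher and 132 lower of 23032, against 664 and 321 with DESeq2 and 1050 and 919 with voom. They were 531 and 323 of 22970 without the set-apart libraries, and 566 and 343 of 22352 with the control groups alone. The number of members called ran from 1 to 4 with a library left out. It was 1 without any of 5 young brains, replicates 1 and 2 at 3 weeks and all 3 at 8 weeks. For age in skin 2 members were called, against 4 with DESeq2, 1 with voom, 1 with the control groups alone and 0 without fish157. Over all genes 260 were called higher and 286 lower of 22682, and 18 and 40 of 23238 without fish157. The number of members called ran from 0 to 11 with a library left out. It was 11 and 10 without young replicates 2 and 3 at 3 weeks, the companions of fish157 in its group, 0 without young replicate 2 or 3 at 8 weeks, and 4 and 1 without old replicates 2 and 3 at 3 weeks. For time in control skin 20 members were called, where edgeR called 251 of all genes higher and 488 lower. The members called were 13 with no filter, 3 with DESeq2, 0 with voom, 0 with the control groups alone and 0 without fish157. Their number ran from 0 to 30 with a library left out, with 9 to 13 without old replicate 3 at 3 weeks or any of the 4 old skins at 8 weeks.

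Where edgeR called no member, DESeq2, voom and the fit without the set-apart libraries each called 1 in brain after 8 weeks of rotenone, and voom called 4 in skin. For the difference between 8 and 3 weeks of rotenone DESeq2 called 1 in brain and 2 in liver. For time in control liver DESeq2 called 1 and the fit without the set-apart libraries 5, with 0 to 5 when a library was left out, of which 5 was without fish188, 2 without old control replicate 1 at 8 weeks, and 1 without replicate 2 at 8 weeks or replicate 1 at 3 weeks. Over all genes DESeq2 called 1345 higher and 1133 lower there, and the fit without the set-apart libraries 1173 and 1171. Of the 5 members whose rotenone effect differed between liver and brain, 3 were called with the fish as a block and 3 without the set-apart libraries. Between liver and skin these numbers were 3 and 2 in place of 5. For age between liver and brain, 1 member was called, against 6 with DESeq2, 4 without the set-apart libraries and 2 without those with liver transcripts. Between liver and skin it was 1, against 3 without the set-apart libraries.

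The replicate numbers of the labels did not pair libraries within a tissue. With group means subtracted from each gene, same-numbered libraries of 2 groups correlated above 0.1 in 3 of 19 pairs in brain, 1 of 14 in liver and 3 of 19 in skin. With the number as a replicate block, 0 members were called in liver after 8 weeks of rotenone (edgeR adjusted p of c3b 0.117, c4 0.152 and serpina7 0.146), 3 in old brain, 1 in old skin, 0 in skin over time and 2 for age between liver and brain. That liver fit called 4 of all 20190 genes higher and 17 lower, against 439 and 1047 without the block. In old brain it called 217 of 23032 genes higher and 80 lower.

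RLE moved the median of all genes by -0.16 between liver and brain and by -0.11 between skin and brain. It moved the share of calls that were higher from 34.58 to 48.9% for age between liver and brain and from 43.71 to 59.38% for age between liver and skin. In brain after 8 weeks of rotenone that share went from 28.57 to 40%, on 2 genes higher and 5 lower with TMM and 2 higher and 3 lower with RLE. Few counts of many members in brain and skin, and liver groups of 2 and 3 fish, limit what could be called.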
